A study of Homo sapiens with 15 samples.

Results

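The ERBB and insulin-IGF receptors of LNCaP cells were examined with the substrates and inhibitors that attach to them, 9 genes in all: EGFR, ERBB2, ERBB3, IGF1R, INSR, IRS1, IRS2, ERRFI1 and GRB10. They were chosen by name, and all 9 were found among the 17272 genes of the deposited RNA sequencing table, each with a mean of at least 1 CPM, the deposited unit of reads scaled to a nearly equal total per library. LNCaP is a human prostate cancer line that depends on the androgen receptor. Cells of both groups were first deprived of steroids for 2 days in medium with charcoal-stripped serum. By the labels, 10 libraries came from cells given the synthetic androgen R1881 at 1 nM (with DMSO, by the names of the table's columns) and 5 from cells given R1881 at 1 nM with 2 µM darolutamide, an antagonist of the androgen receptor, here called the combination. All were harvested at 22 h. The comparison asks what blocking the androgen receptor does to gene expression in the presence of androgen. Each group is a single cell line in culture, and no group without R1881 was analysed here.

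ERBB receptors are tyrosine kinases at the cell surface that pair when a ligand of the EGF or neuregulin family binds. EGFR binds EGF and TGF-alpha, and ERBB2 has no known ligand and acts as a partner. ERBB3 binds some of the neuregulins, has little kinase activity of its own and recruits PI3K when a partner phosphorylates it. The insulin receptor INSR and the IGF1 receptor IGF1R are close relatives that phosphorylate the docking proteins IRS1 and IRS2, which also recruit PI3K. ERRFI1 binds the kinase domain of ERBB receptors and inhibits it, and GRB10 binds activated INSR and IGF1R and dampens their signal.

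The sequences before the starts of 3 genes are shown because IGF1R and INSR are relatives that moved apart in these data and because ERRFI1, with IGF1R, fell most of the 9. RefSeq (GRCh38.p14) gave 250 bases before each annotated start for 8 of the 9 genes, in 13 windows; ERBB3 had no entry. The sequences run 5′ to 3′ on the strand of the gene, with the GC box GGGCGG, or its reverse complement CCGCCC, in capitals, and matches that share an end base were each marked. The windows lie at chr15:98648289-98648538 on the plus strand for IGF1R, at chr19:7294415-7294664 on the minus strand for INSR and at chr1:8026310-8026559 on the minus strand for ERRFI1, and hold no annotated exon.
IGF1R: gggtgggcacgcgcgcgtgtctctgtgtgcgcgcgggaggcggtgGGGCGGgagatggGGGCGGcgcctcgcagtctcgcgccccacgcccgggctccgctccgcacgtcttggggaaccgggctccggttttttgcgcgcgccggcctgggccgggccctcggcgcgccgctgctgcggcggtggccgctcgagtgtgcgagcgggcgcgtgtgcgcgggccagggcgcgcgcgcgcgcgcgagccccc
INSR: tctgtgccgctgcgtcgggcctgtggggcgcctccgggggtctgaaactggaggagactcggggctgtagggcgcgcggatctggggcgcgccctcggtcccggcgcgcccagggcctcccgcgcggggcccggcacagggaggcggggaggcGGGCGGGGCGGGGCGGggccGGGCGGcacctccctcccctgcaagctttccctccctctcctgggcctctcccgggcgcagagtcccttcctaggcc
ERRFI1: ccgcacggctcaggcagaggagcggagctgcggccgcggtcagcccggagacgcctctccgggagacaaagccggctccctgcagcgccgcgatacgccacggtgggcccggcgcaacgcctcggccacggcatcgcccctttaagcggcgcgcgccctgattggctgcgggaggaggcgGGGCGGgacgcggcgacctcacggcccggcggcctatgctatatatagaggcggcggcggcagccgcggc
The GC box occurred 2 times before IGF1R, 4 times before INSR and 1 time before ERRFI1. It was found in 8 of the 13 windows and in 42.6% of all 35116 RefSeq windows of this length. The half-site of the androgen receptor, AGAACA or TGTTCT, was in 0 of the 13 windows and in 12.4% of all windows. The FOXO site GTAAACA or TGTTTAC was in 0 of the 13 and in 2.98% of all. Several of the 13 windows belong to alternative starts of GRB10. With so few windows, 0 matches cannot show that these genes lack such sites, and sequence beyond the 250 bases was not searched. These 3 windows had a GC content of 81.2%, 78.4% and 75.2%, against a median of 58.0% over all windows. All 3 lay above that median.

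Depth was 15830745 to 24316740 reads under R1881 and 21870398 to 25317567 under the combination. The androgen receptor targets KLK3 (the gene of PSA) and FKBP5 checked the labels: KLK3 went from 1588 ± 209 (SD, n = 10, pooled over runs of library numbers that stood at 1397 ± 38.0 and 1779 ± 78.0) to 615 ± 55.9 CPM (SD, n = 5) and FKBP5 from 1502 ± 87.4 to 152 ± 11.1 CPM. All 8 luminal prostate markers were in the table, 5 lower and 2 higher with the combination, and their summed level went from 7103 to 8274 CPM to 4367 to 4616 CPM. Of the fibroblast markers, 3 of 6 were in the table and all 3 were higher, with a summed level of 6.36 to 10.5 CPM under R1881 and 13.5 to 30.6 CPM with the combination, while COL1A2, DCN and PDGFRB were not listed. Of the endothelial markers, VWF alone was listed, at 2.08 to 2.84 and 3.56 to 4.10 CPM, and of the basal markers KRT14 alone, at 0.706 to 1.44 and 0.528 to 0.878 CPM. The immune markers PTPRC, CD3E, CD68 and MS4A1 were not listed. The part of these markers in the changes below was not tested. In bulk RNA, fewer cells of a type and less RNA per cell cannot be told apart. The library numbers run from 51 to 55 and from 71 to 75 for R1881 and from 86 to 90 for the combination, so that treatment and run of numbers cannot be told apart. The p-values measure the spread between libraries, which may be technical.

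With darolutamide, 4 of the 9 genes were lower and 2 were higher. The IGF1 receptor and the EGFR inhibitor ERRFI1 fell most, IRS2 and EGFR fell by less, GRB10 rose most and ERBB2 rose by less. ERBB3, INSR and IRS1 did not pass the test. A gene was called at an adjusted p under 0.05 by limma, fitted with a trend to log2(CPM + 0.5) of all genes, and fold changes are on that scale, which understates the change of low genes. Of all 17272 genes, 23.7% were called lower and 22.8% higher, so 4 of 9 lower and 2 of 9 higher are to be read against a wide response. All 4 lower genes had their highest combination library under their lowest R1881 library, as had 12.6% of all genes, and both higher genes showed the reverse gap, as did 10.8%. The log2 fold change of all genes had a median of 0.0004 and a 5th to 95th percentile range of -0.59 to 0.62, and 5 of the 9 genes lay outside that range. The 9 genes were chosen with earlier results of these data known, so this count cannot show that they respond more than other genes.

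**Figure D1:**
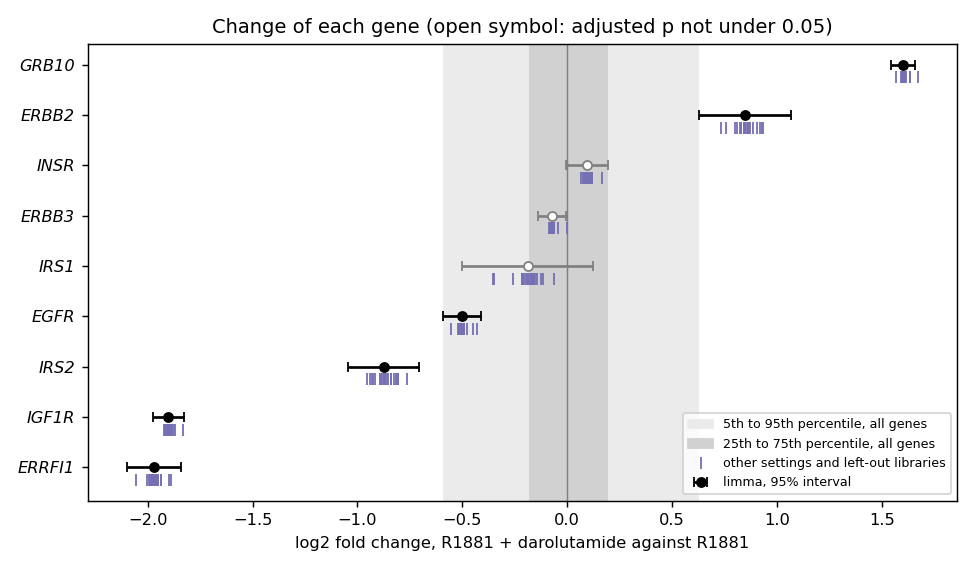
Log2 fold change of each of the 9 genes, R1881 with darolutamide against R1881, with its 95% interval from limma as bars, the values under other settings and with single libraries left out as ticks, and the percentiles of all genes as shaded bands. Filled symbols are the 6 genes with an adjusted p under 0.05, from -1.97 for ERRFI1 to 1.60 for GRB10, and open symbols are INSR (0.09), ERBB3 (-0.07) and IRS1 (-0.19).

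IGF1R, the receptor of IGF1 and IGF2, lies on chromosome 15 of GRCh38 from 98648539 to 98964530 on the plus strand. Under R1881 it ranged from 106 to 117 CPM with a median of 110.2, and in combination replicates 1 to 5 it was 31.4, 29.3, 27.9, 29.2 and 29.1 CPM. All 5 combination libraries sat far below the lowest R1881 library, and the values within each group lay close together. The mean went from 111 ± 3.75 (SD, n = 10) to 29.4 ± 1.23 CPM (SD, n = 5), 3.78-fold lower, with a log2 fold change of -1.90 ± 0.034 (SE, limma adjusted p = 1.30e-17), and 89 genes of the table had a lower one.

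INSR, the insulin receptor, lies on chromosome 19 from 7112255 to 7294414 on the minus strand. Under R1881 it ranged from 27.3 to 32.4 CPM with a median of 29.05, and with the combination it was 31.9, 29.4, 32.4, 30.0 and 32.9 CPM. The groups overlapped, with 1 combination library above every R1881 library. The log2 fold change was 0.09 (95% interval -0.01 to 0.19, adjusted p = 0.120 from limma), which leaves out a change of the size seen in IGF1R. INSR passed the test when reads were scaled by library totals (0.16, adjusted p = 0.00941 from limma) and after a correction for GC content (0.12, adjusted p = 0.0176).

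The 2 receptors therefore stood in another proportion. The ratio of INSR to IGF1R reads, in CPM and not per length, ranged from 0.241 to 0.283 with a median of 0.263 under R1881 and from 1.00 to 1.16 with a median of 1.03 with the combination. The groups of ratios did not overlap and differed by 2.01 on the log2 scale.

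IRS1 and IRS2, the docking proteins downstream of both receptors, were the genes with the fewest reads. IRS2 lies on chromosome 13 from 109752695 to 109786583 on the minus strand and IRS1 on chromosome 2 from 226731312 to 226799820 on the minus strand. IRS2 ranged from 8.00 to 10.2 CPM with a median of 8.94 under R1881 and was 4.43, 5.90, 4.18, 3.96 and 4.88 CPM with the combination. Each combination library was below the lowest R1881 library. The mean went from 8.92 ± 0.655 to 4.67 ± 0.770 CPM, 1.91-fold lower, and the log2 fold change was -0.87 ± 0.081 (SE, limma adjusted p = 6.88e-08), from 84 to 217 reads per library. After a correction for GC content, IRS2 ranged from 7.24 to 11.1 CPM under R1881 and from 2.91 to 6.40 CPM with the combination. Its log2 fold change was then -0.81 ± 0.119 (SE, limma adjusted p = 5.35e-06), with a wider spread than before the correction.

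IRS1 ranged from 2.75 to 4.31 CPM with a median of 3.35 under R1881 and was 2.95, 2.87, 2.51, 4.86 and 1.90 CPM with the combination. Combination replicate 4 was the highest of all 15 libraries and combination replicate 5 the lowest, so the combination libraries spanned the whole R1881 range. At 42 to 103 reads per library, the log2 fold change was -0.19 (95% interval -0.50 to 0.12, adjusted p = 0.323 from limma). Without combination replicate 4 it was -0.35 (adjusted p = 0.0221 from limma), and without combination replicate 5 it was -0.06 (adjusted p = 0.762), so combination replicate 4 decided whether IRS1 passed. The ratio of IRS2 to IRS1 ranged from 2.15 to 3.32 under R1881 and from 0.816 to 2.57 with the combination, and these ranges overlapped.

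EGFR lies on chromosome 7 from 55019017 to 55211628 on the plus strand. Its R1881 libraries spanned 132 to 154 CPM around a median of 152, and with the combination it was 107, 102, 108, 97.6 and 104 CPM. The groups did not overlap, and the lowest R1881 values came from replicates 5, 6 and 8, all numbered 71 to 75. R1881 replicates 2 and 3, of the same run of numbers, were at 151.6 and 152.7 CPM. The mean went from 147 ± 8.60 (SD, n = 10) to 104 ± 4.12 CPM (SD, n = 5), 1.42-fold lower, with a log2 fold change of -0.50 ± 0.043 (SE, limma adjusted p = 2.98e-08). This was a moderate change among these genes, and 1150 genes of the table had a lower fold change.

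ERBB2, the partner of the other ERBB receptors, lies on chromosome 17 from 39687914 to 39730426 on the plus strand. Under R1881 it ranged from 90.7 to 133 CPM with a median of 102, and with the combination it was 180.5, 177, 150.0, 258 and 189 CPM. Every combination library was above every R1881 library, and combination replicates 3 and 4 stood at the 2 ends of their group. The mean went from 105 ± 13.0 to 191 ± 40.5 CPM, 1.82-fold higher, with a log2 fold change of 0.85 ± 0.104 (SE, limma adjusted p = 2.60e-06). Without combination replicate 4 it was 0.73 (adjusted p = 5.14e-07 from limma).

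The spread of ERBB2 moved with the GC content of the libraries. Its transcript has a GC content of 60.4%, the highest of the 9 genes, whose others range from 43.5% to 58.7%. The slope of a library's genes on GC content, in log2 units per 10 percentage points of GC, was highest in combination replicate 4 (0.35) and lowest in combination replicate 3 (-0.23), the libraries with the highest and lowest ERBB2 of their group. In R1881 replicate 6, which had the highest ERBB2 under R1881, the slope was 0.23. After a correction for GC content, ERBB2 ranged from 97.8 to 108 CPM under R1881 and from 180.0 to 199.97 CPM with the combination, and the log2 fold change was 0.91 ± 0.027 (SE, limma adjusted p = 2.38e-17), so the difference was at least as large with a narrower spread. The exons of ERBB2 overlap those of PGAP3 by 144 bases and those of MIEN1 by 571 bases on the opposite strand, and the strand setting of the counting is not given in the sources used here. PGAP3 was at 17.3 ± 1.40 and 16.4 ± 4.80 CPM (log2 fold change -0.12, adjusted p = 0.443 from limma) and MIEN1 at 77.1 ± 5.25 and 79.5 ± 4.61 CPM (0.04, adjusted p = 0.502). GRB7, an adaptor gene next to ERBB2, was at 5.72 ± 0.990 and 5.89 ± 1.87 CPM (0.01, adjusted p = 0.962), so its neighbours did not pass the test.

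**Figure D2:**
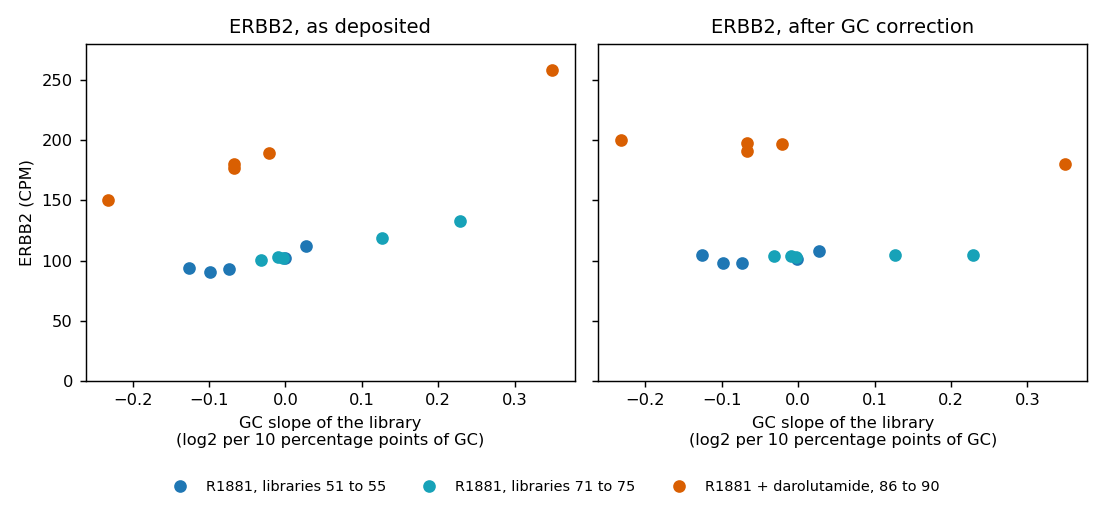
ERBB2 in CPM against the slope of each library on GC content, in log2 units per 10 percentage points, as deposited on the left and after the GC correction on the right, with 1 point per library. The combination libraries lie between 150.0 and 258 CPM before the correction and between 180.0 and 199.97 CPM after it, above the R1881 libraries in both panels.

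ERBB3, a receptor of some neuregulins, lies on chromosome 12 from 56076799 to 56103505 on the plus strand. Its level under R1881 was 269 to 302 CPM with a median of 288, and with the combination it was 279, 265, 276, 268 and 276 CPM. The groups overlapped: combination replicates 2 and 4 were below every R1881 library and the other 3 lay within the R1881 range. The log2 fold change was -0.07 (95% interval -0.14 to -0.01, adjusted p = 0.0731 from limma). It passed the test without R1881 replicate 5 (-0.08, adjusted p = 0.0364 from limma) or R1881 replicate 6 (-0.08, adjusted p = 0.0331), and was -0.0009 with reads scaled by library totals.

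The ratio of ERBB3 to ERBB2, in CPM, ranged from 2.03 to 3.15 with a median of 2.89 under R1881 and from 1.04 to 1.84 with a median of 1.501 with the combination. The ratios did not overlap and differed by -0.92 on the log2 scale, beside log2 fold changes of 0.85 for ERBB2 and -0.07 for ERBB3.

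**Figure D3:**
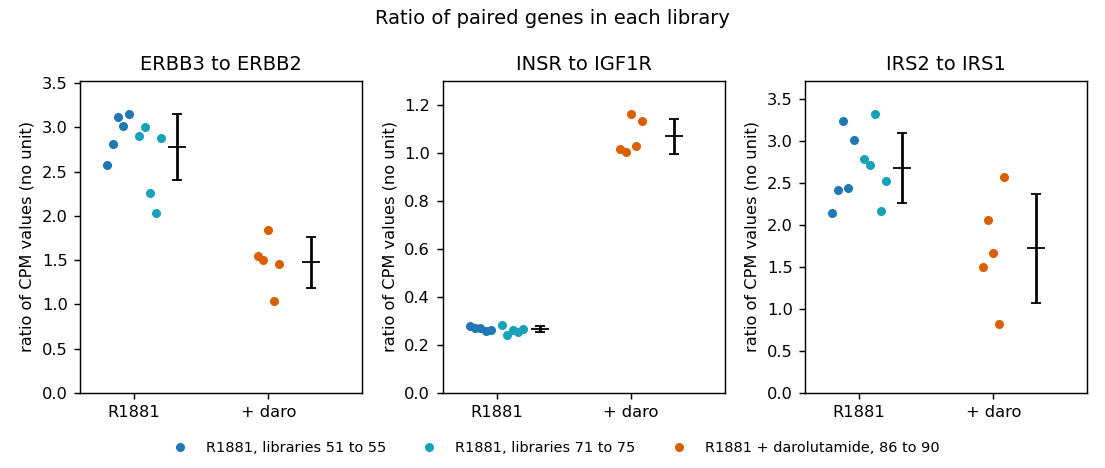
Ratio of the CPM values of 3 pairs of genes in each library, with the mean and SD of each group beside the points. INSR to IGF1R goes from 0.241 to 0.283 under R1881 to 1.00 to 1.16 with darolutamide, ERBB3 to ERBB2 is lower without overlap, and IRS2 to IRS1 overlaps between the groups.

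ERRFI1, the inhibitor of ERBB kinases, lies on chromosome 1 from 8004404 to 8026309 on the minus strand. Under R1881 it ranged from 148 to 189 CPM with a median of 170.4, and with the combination it was 40.8, 43.96, 47.05, 38.7 and 43.6 CPM. The groups were far apart, with the lowest R1881 values again in replicates 5 and 6. These 2 libraries had the highest GC slopes under R1881 (0.13 and 0.23). After the GC correction, ERRFI1 ranged from 156 to 180 CPM and EGFR from 136 to 154 CPM under R1881. The mean went from 169 ± 14.2 (SD, n = 10) to 42.8 ± 3.21 CPM (SD, n = 5), 3.96-fold lower, with a log2 fold change of -1.97 ± 0.060 (SE, limma adjusted p = 1.50e-14). In the table, 79 genes had a lower fold change. EGFR and the inhibitor of its kinase thus both fell, EGFR by 0.50 and ERRFI1 by 1.97 on the log2 scale.

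GRB10, the inhibitor that binds INSR and IGF1R, lies on chromosome 7 from 50590063 to 50793462 on the minus strand. The 10 R1881 libraries lay between 177 and 198 CPM with a median of 186, and with the combination it was 563, 571, 567, 556 and 566 CPM. These 5 values lay within a few percent of each other and far above every R1881 library. The mean went from 186 ± 6.20 (SD, n = 10) to 564 ± 5.69 CPM (SD, n = 5), 3.04-fold higher, with a log2 fold change of 1.60 ± 0.028 (SE, limma adjusted p = 8.04e-18), and 64 genes of the table had a higher one. In the same libraries, the inhibitor of the IGF1 receptor rose and the receptor fell.

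**Figure D4:**
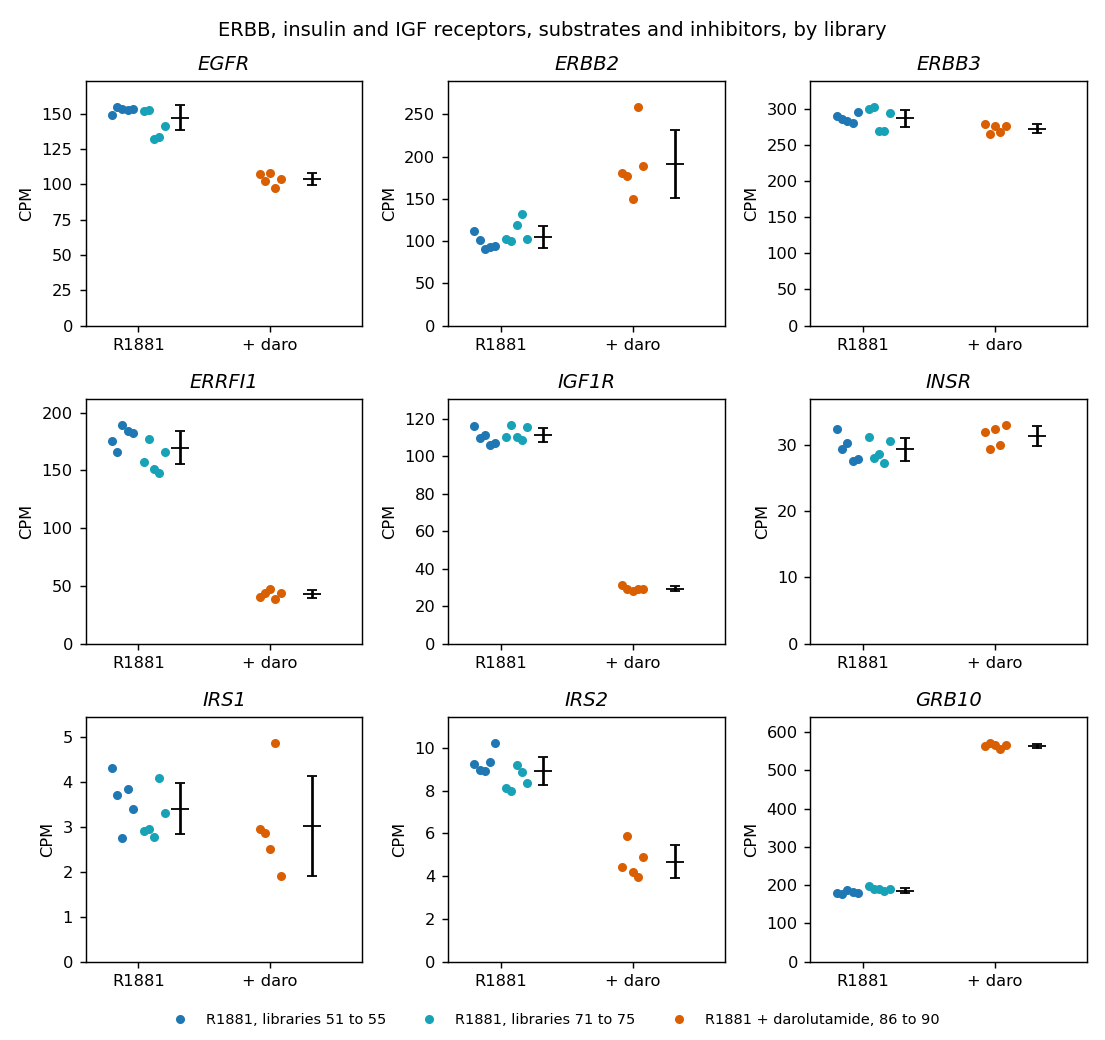
CPM of each of the 9 genes in each of the 15 libraries, with colours for the 3 runs of library numbers and the mean and SD of each group beside the points. IGF1R, ERRFI1 and GRB10 show wide gaps between the groups, EGFR, ERBB2 and IRS2 show narrower gaps, and ERBB3, INSR and IRS1 overlap.

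Levels were compared between genes per kilobase of transcript, with the length of the reference transcript of each gene in GENCODE. Under R1881 the order, from high to low, was ERRFI1 (54.7 ± 4.59 CPM per kilobase, SD, n = 10), ERBB3 (51.1 ± 2.09), GRB10 (34 ± 1.13), ERBB2 (23.0 ± 2.86), EGFR (14.9 ± 0.868), IGF1R (9.08 ± 0.306), INSR (3.10 ± 0.182), IRS2 (1.09 ± 0.080) and IRS1 (0.348 ± 0.058). Only ERRFI1 and ERBB3 overlapped among neighbours in that order. With the combination the order was GRB10 (103 ± 1.04 CPM per kilobase, SD, n = 5), ERBB3 (48.6 ± 1.06), ERBB2 (41.9 ± 8.88), ERRFI1 (13.8 ± 1.04), EGFR (10.5 ± 0.416), INSR (3.31 ± 0.163), IGF1R (2.40 ± 0.101), IRS2 (0.573 ± 0.094) and IRS1 (0.309 ± 0.114). Here ERBB3 overlapped ERBB2, and IRS2 overlapped IRS1. GRB10 moved from the third place to the first, ERRFI1 from the first to the fourth, and IGF1R passed from above INSR to below it. Beside ERBB2, exons of 4 of the genes share bases with genes outside the table: EGFR 186 bases with EGFR-AS1, ERRFI1 155 and IRS2 115 with unnamed genes, all on the opposite strand, and ERBB3 31 with an unnamed gene on the same strand.

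The 2 runs of R1881 libraries gave the size of differences without a difference in treatment. Between numbers 71 to 75 and 51 to 55, 0 of the 9 genes passed limma's test, where 3.1% of all genes did. By edgeR's quasi-likelihood test on the recovered reads 0 passed, where 473 of all 17272 genes did. At an unadjusted p under 0.05 there were 4 by limma and 3 by edgeR. The share of all genes at that unadjusted threshold was not counted, so these counts cannot be read as many or few. The 4 were ERRFI1 at -0.17, ERBB2 at 0.18, EGFR at -0.10 and GRB10 at 0.07 on the log2 scale, and over all 9 genes the differences between the runs spanned -0.17 to 0.18. Without R1881 replicate 3, ERRFI1 passed (-0.20, adjusted p = 0.0292 from limma). Against either run alone, each of the 6 called genes kept its direction and its call: the log2 fold change of ERRFI1 was -2.05 against 51 to 55 and -1.89 against 71 to 75, and that of ERBB2 was 0.94 and 0.76.

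For each of the 9 genes, the gene outside them with the most similar pattern over the 15 libraries was found by Pearson's r of log2(CPM + 0.5) among 15693 genes with a mean of at least 1 CPM. The correlations span both groups, so those of genes that moved with the treatment mainly carry that difference, and they are given as a description. IGF1R was closest to SLC41A1, a magnesium transporter (r = 0.999), ERRFI1 to LIFR, the receptor of leukaemia inhibitory factor (r = 0.998), GRB10 to CSMD1 (r = 0.998) and EGFR to PRKAR2A, a regulatory subunit of protein kinase A (r = 0.994). ERBB2 was closest to CLSTN3 (r = 0.991) and IRS2 to PSMB2, a proteasome subunit (r = 0.980). The genes that did not pass had less similar partners, with r of 0.916 for INSR and RSPH3, 0.901 for ERBB3 and UGGT1 and 0.859 for IRS1 and FAM86FP.

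Other genes of both pathways were taken from lists of 107 genes, of which 84 were in the table. Of these, 21 (25%) fell, 28 (33.3%) rose and 35 missed the threshold, beside 23.7% and 22.8% of all genes, and their median log2 fold change was 0.02, near that of all genes. The adjusted p-values below are from limma over all genes.

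**Figure D5:**
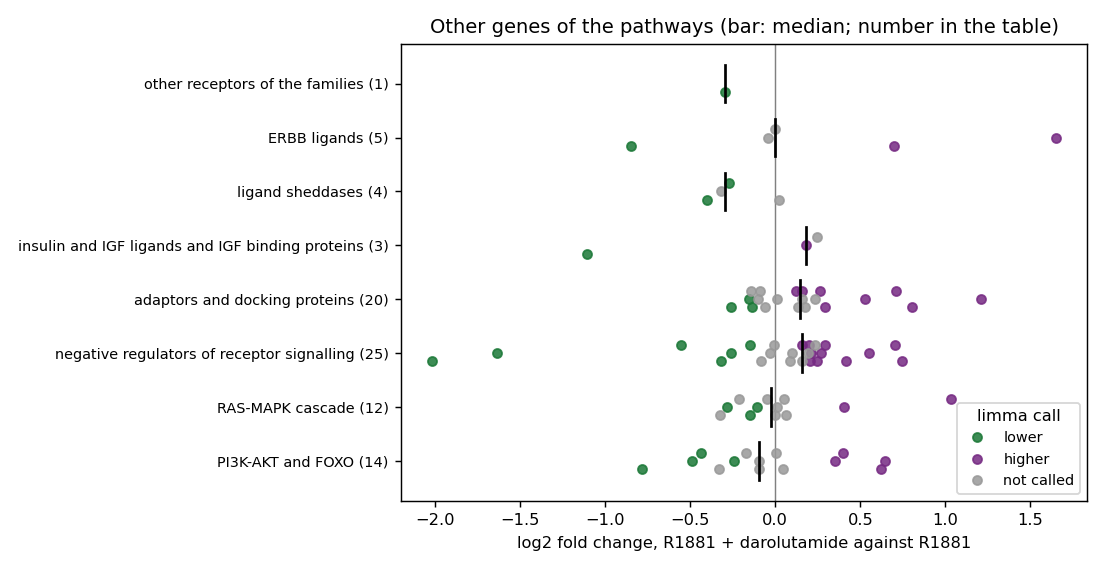
Log2 fold change of the other genes of the pathways, R1881 with darolutamide against R1881, by list, with 1 point per gene coloured by limma's call, a bar at the median of each list and the number of genes in the table in brackets. The medians lie between -0.30 and 0.18 and each list with more than 4 genes holds both lower and higher genes, with SOCS2 at -2.02 and NRG3 at 1.65 at the ends.

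Of the other receptors of these families, ERBB4 and INSRR were not in the table. IGF2R, which binds IGF2 and carries it to lysosomes, went from 590.0 ± 25.9 to 481 ± 15.7 CPM (log2 fold change -0.30, adjusted p = 1.25e-06 from limma).

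Among the ligands of ERBB receptors, 5 of 11 were in the table, 2 higher, 1 lower and 2 not called, beside 22.8% and 23.7% of all genes. NRG3, a neuregulin, ranged from 3.92 to 6.17 CPM under R1881 and was 16.8, 15.9, 16.9, 14.2 and 16.0 CPM with the combination, without overlap. Its mean went from 4.77 ± 0.754 to 16.0 ± 1.08 CPM (log2 fold change 1.65, adjusted p = 8.15e-11 from limma). TGFA, a ligand of EGFR, went from 9.70 ± 0.736 to 16.0 ± 1.02 CPM (0.70, adjusted p = 4.14e-08), and HBEGF, another, from 5.20 ± 0.529 to 2.68 ± 0.462 CPM (-0.85, adjusted p = 4.97e-07). EGF and NRG4 did not pass the test, and NRG1 and NRG2 were not in the table. The receptor on which NRG3 acts was not tested, and a rise of NRG3 is not to be read as a rise of a ligand of ERBB3. Of the 4 genes that release ligands from the membrane, the proteases ADAM17 (-0.40, adjusted p = 0.000187) and ADAM10 (-0.27, adjusted p = 0.00104) fell and 2 did not pass. For ADAM10 the groups overlapped and the R1881 runs differed by -0.21 (71 to 75 against 51 to 55, adjusted p = 0.0190 from limma), and its log2 fold change was -0.37 against 51 to 55 and -0.17 against 71 to 75.

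Of 13 insulin and IGF ligands and IGF binding proteins, 3 were in the table, while INS and IGF2 were not. IGF1, a ligand of IGF1R, was low and fell from 4.58 ± 0.613 to 1.87 ± 0.382 CPM (log2 fold change -1.10, adjusted p = 9.65e-08 from limma). IGFBP3, which binds IGFs outside the cell, went from 53.3 ± 4.90 to 60.2 ± 5.08 CPM (0.18, adjusted p = 0.0390), a call that was lost in 9 of 26 alternatives. These were the replicate block, either run of R1881 libraries alone, and the fits without R1881 replicate 3, 4 or 8 or combination replicate 1, 3 or 5, with an adjusted p of up to 0.131. IGFBP2 did not pass.

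Adaptors and docking proteins link the receptors to RAS and PI3K. Of these, 8 of 20 in the table rose, 3 fell and 9 missed the threshold, with a median of 0.14. Over all genes, 22.8% were called higher and 23.7% lower. SHC3, at a low level, rose from 1.30 ± 0.248 to 2.63 ± 0.376 CPM (log2 fold change 0.81, adjusted p = 9.08e-06 from limma). SHC4 was at 0.678 ± 0.312 and 2.13 ± 0.278 CPM and reached a mean of 1 CPM only through the combination, with as few as 2 reads in a library. SHC1, the widely expressed member of that family, went from 91.4 ± 7.45 to 76.2 ± 8.29 CPM (-0.26, adjusted p = 0.00305), with overlapping groups, and did not pass against R1881 libraries 51 to 55 alone (adjusted p = 0.0611). The R1881 runs themselves differed in SHC1 by 0.19 (71 to 75 against 51 to 55, adjusted p = 0.0318). CRKL went from 85.5 ± 4.09 to 76.9 ± 2.09 CPM (-0.15, adjusted p = 0.00258) and did not pass with library totals (adjusted p = 0.0790).

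Negative regulators other than ERRFI1 and GRB10 moved both ways, with 11 of 25 in the table higher, 6 lower and 8 not called, and a median of 0.16. The shares of all genes were 22.8% higher and 23.7% lower. The lowest were SOCS2, a suppressor of cytokine and growth hormone signalling, and LRIG1, a membrane protein that lowers ERBB receptor levels. SOCS2 ranged from 38.9 to 46.9 CPM under R1881 and was 10.2, 10.7, 9.68, 9.05 and 11.0 CPM with darolutamide, which is a log2 fold change of -2.02 (adjusted p = 2.70e-15 from limma). LRIG1 ranged from 234 to 259.5 CPM and was 79.9, 79.1, 75.8, 79.4 and 82.4 CPM, a log2 fold change of -1.64 (adjusted p = 2.56e-17). Neither overlapped between groups. LRIG3 of the same family rose from 8.48 ± 0.617 to 14.5 ± 0.700 CPM (0.74, adjusted p = 9.09e-09), and SPRY1, an inhibitor of the RAS-MAPK cascade, from 6.60 ± 0.700 to 11.0 ± 0.692 CPM (0.70, adjusted p = 4.04e-07).

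In the RAS-MAPK cascade, 2 of 12 genes rose, 3 fell and 7 missed the threshold, with a median of -0.03. Beside them, 22.8% of all genes rose and 23.7% fell. The scaffold KSR2 rose from 4.67 ± 0.619 to 10.0 ± 0.369 CPM (log2 fold change 1.03, adjusted p = 1.44e-08 from limma), and the kinase MAP2K1 fell from 136 ± 2.95 to 122 ± 1.16 CPM (-0.15, adjusted p = 7.92e-05), or by 0.08 on the log2 scale with library totals.

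Among PI3K, AKT and FOXO genes, 4 of 14 in the table rose, 4 fell and 6 missed the threshold, with a median of -0.10. The shares of all genes were 22.8% higher and 23.7% lower. Regulatory subunits of PI3K bind phosphorylated receptors and docking proteins. Of these, PIK3R1 rose from 162 ± 14.0 to 254 ± 17.9 CPM (log2 fold change 0.65, adjusted p = 9.65e-08 from limma) and PIK3R3 from 181 ± 11.1 to 278 ± 16.2 CPM (0.62, adjusted p = 5.75e-09), while PIK3R2 was not in the table. PIK3R1 also differed between the R1881 runs, by -0.19 (71 to 75 against 51 to 55, adjusted p = 0.0418 from limma). MTOR, the kinase of the growth-controlling complexes downstream, fell from 145 ± 5.87 to 83.97 ± 3.45 CPM (-0.78, adjusted p = 4.04e-12). FOXO3, a transcription factor that AKT keeps out of the nucleus, fell from 483 ± 18.4 to 356 ± 8.37 CPM (-0.44, adjusted p = 1.67e-09).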

How the data were processed

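RNA selected for poly(A) was sequenced from 10 R1881 and 5 combination libraries as single reads of 50 bases with a stranded kit. The authors aligned reads to GRCh38 with STAR and counted them with featureCounts of Subread (bcl2fastq 2.17 made the reads; the other versions are not given in the sources used here), and deposited a scaled signal per gene that they call CPM: 100% of the values were whole reads, within 0.001, divided by 1 factor per library. Columns summed to 1053406 to 1078567 for R1881 and to 1005403 to 1031224 for the combination, so the totals of the groups did not overlap.

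limma (3.58.1, trend) was fitted to log2(value + 0.5) for all 17272 genes, without a filter or a covariate, two-sided, with Benjamini-Hochberg adjustment and a threshold of 0.05. A group was called apart where no library of one overlapped the other. GC content was corrected by fitting each library a natural spline (df 5) on genes with a known GC value and a mean of at least 1 CPM. The spline was applied to all 13955 genes with a known GC value. This correction was added after the data had been seen. Whole reads were recovered for edgeR (4.0.16), DESeq2 (1.42.0) and scaling by library totals, in R 4.3.3. The other alternatives were pseudocounts of 0.1 and 1, a minimum mean of 1 CPM, a replicate block, 1 run of R1881 libraries at a time, combination replicates 3 and 4 left out together, and each library left out in turn. The fits were also run on simulated data without a GC slope or a difference between runs, and no result here rests on that simulation. No 2 libraries of a group agreed within sampling noise (lowest chi-square per degree of freedom 1.63). Pairs with combination replicate 4 were at 32.6 to 67.7, and the other pairs of combination libraries at 2.33 to 9.99. Without that library 8877 of all genes were called, against 8044.

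All 9 genes were named. From each list, up to 2 genes of smallest p were named in each direction, at an adjusted p under 0.05 and a mean of at least 1 CPM, and for each of the 9 genes the most similar other gene. Some genes that this rule names are not reported here. The genes and lists were chosen with earlier results of these data known. Groups follow the labels, since the methods of the study give the group sizes and the unit of the R1881 dose differently. Positions, lengths and overlaps come from GENCODE version 44 (GRCh38) which need not be the annotation that the authors used.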

Additional observations from a re-analysis of the deposited data

Results flagged for a closer look

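In 66 groups of values (each of the 9 genes and the named genes of the lists in each group), 1 held a library far from the others, where chance gives about 1 in 20 groups. FOXO3 in combination replicate 4 was at 341 CPM, while the other 4 combination libraries lay between 358 and 361 CPM. The difference between the groups does not turn on it, since FOXO3 passed limma's test in all 26 alternatives, with a log2 fold change of -0.47 to -0.37.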

How the results depend on the processing

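EGFR (-0.55 to -0.43), ERBB2 (0.73 to 0.94), ERRFI1 (-2.05 to -1.89), GRB10 (1.57 to 1.67), IGF1R (-1.92 to -1.83) and IRS2 (-0.95 to -0.76) kept direction and call in all 26 alternatives, ranges being log2 fold changes. The number of the 9 genes called was 6 or 7 throughout, 7 with INSR (library totals, GC correction), ERBB3 (without R1881 replicate 5 or 6) or IRS1 (without combination replicate 4, or replicates 3 and 4). Between the runs of R1881 libraries it ranged from 0 to 1 with each library left out, the 1 being ERRFI1 without R1881 replicate 3, and the count over all genes from 50 to 949. With library totals, 3030 genes were lower and 5326 higher, against 4098 and 3946, and the median of all genes moved by 0.07 on the log2 scale. Over all genes of each fit, 6242 to 8877 were called, and of the pathway genes 39 to 58, against 49. The fit after GC correction, which called 8650 genes and 58 pathway genes, held 13955 genes. The minimum mean of 1 CPM left 15693 genes. Same-numbered libraries did not deviate together (correlations of -0.14 to 0.34, 0 of 5 combination libraries closest to their own number), so the numbers were not taken as pairs. With the replicate block, 6 of the 9 genes, 39 pathway genes and 6242 of all genes were called. Depth limits IRS1 most, at 42 to 103 reads per library. The run of the combination libraries holds no R1881 library, so no fit could separate it from the treatment.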
